A study of Mus musculus with 5 samples.

Results

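The 8 T-box transcription factor genes Tbx1, Tbx2, Tbx3, Tbx4, Tbx5, Tbx15, Tbx18 and Tbx20 were followed through 5 mouse white fat depots, in each marker-defined class of nuclei. They were chosen by name and make up 8 of the 32285 genes counted. In the 66249 nuclei retained, they gave 7198 UMIs (unique molecular identifiers, each standing for 1 captured RNA molecule).

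T-box proteins share a DNA-binding domain, the T-box, and bind variants of a short core sequence. Some members mainly activate their targets and others, such as Tbx2 and Tbx3, mainly repress them. The family lays out limb, heart, branchial arch and body wall in the embryo: Tbx5 marks the forelimb and heart fields, Tbx4 the hindlimb, and Tbx18 and Tbx20 the heart and its outer covering. Tbx15 is known for skeletal and skin patterning and as a gene of subcutaneous fat, and adult cells can keep such regional genes switched on.

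The material was fat of 10-week-old male mice fed chow and perfused before dissection, with nuclei of several mice pooled into 1 library for each depot. The depots were subcutaneous (SWAT, 6 mice), epididymal (EWAT, 6 mice), mesenteric (MWAT, 10 mice), perirenal (NWAT, 6 mice) and peri-heart (HWAT, 20 mice). Lymph nodes had been taken out of SWAT and MWAT. The strain is C57BL/6J in the protocol text of every library. The separate strain label agrees only for SWAT and EWAT: MWAT carries C57BL/7J there, NWAT carries C57BL/8J, and HWAT carries C57BL/9J. No depot is a control for another, no agent or mutant allele was used, and with 1 library for each depot no difference between depots has a replicate check. Levels below are CPM, the UMIs of a gene scaled to a fixed total of UMIs, of a class summed over its nuclei. Intervals are exact 95% intervals that cover counting error only, and no p-value is given. Levels are set side by side within a gene, because the counts of different genes were not scaled for length.

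In the GENCODE vM21 annotation of GRCm38, the same assembly as mm10, the identifiers of all 8 genes were found. Tbx2 (ENSMUSG00000000093, chr11:85832551-85841948) and Tbx4 (ENSMUSG00000000094, chr11:85886422-85916097) lie on the plus strand with 44473 bases between them. Tbx3 (ENSMUSG00000018604, chr5:119670669-119684724) and Tbx5 (ENSMUSG00000018263, chr5:119832668-119885219) lie on the plus strand with 147943 bases between them. Tbx15 (ENSMUSG00000027868) is at chr3:99240381-99354259 on the plus strand. Tbx20 (ENSMUSG00000031965, chr9:24718138-24774303), Tbx18 (ENSMUSG00000032419, chr9:87702800-87731260) and Tbx1 (ENSMUSG00000009097, chr16:18580979-18590671) lie on the minus strand.

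The 250 bases upstream of a RefSeq start (GRCm38.p6) were at hand for 4 of the 8 members. The windows of Tbx18, Tbx20 and Tbx4 are shown because all 3 genes varied between depots in mesothelial-like nuclei, and 1 of the 2 windows of Tbx1 because it holds the T-box core motif. Each is written 5′ to 3′ along its gene, with matches to the searched motifs in capitals.
Tbx18 (chr9:87731261-87731510, minus strand): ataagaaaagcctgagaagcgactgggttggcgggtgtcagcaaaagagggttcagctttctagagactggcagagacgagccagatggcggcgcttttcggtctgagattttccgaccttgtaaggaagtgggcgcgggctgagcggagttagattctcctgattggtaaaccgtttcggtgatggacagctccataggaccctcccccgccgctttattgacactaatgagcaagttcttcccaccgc
Tbx20 (chr9:24774304-24774553, minus strand): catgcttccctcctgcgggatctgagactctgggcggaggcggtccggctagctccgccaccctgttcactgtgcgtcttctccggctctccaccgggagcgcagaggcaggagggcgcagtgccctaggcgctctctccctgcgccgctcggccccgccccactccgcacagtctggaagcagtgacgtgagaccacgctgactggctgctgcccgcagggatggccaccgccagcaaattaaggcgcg
Tbx4 (chr11:85896515-85896764, plus strand): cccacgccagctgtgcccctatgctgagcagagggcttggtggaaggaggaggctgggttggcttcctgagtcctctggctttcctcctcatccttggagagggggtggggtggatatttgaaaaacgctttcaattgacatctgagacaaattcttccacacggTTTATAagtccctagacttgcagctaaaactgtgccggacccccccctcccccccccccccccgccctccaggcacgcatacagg
Tbx1 (chr16:18590672-18590921, minus strand): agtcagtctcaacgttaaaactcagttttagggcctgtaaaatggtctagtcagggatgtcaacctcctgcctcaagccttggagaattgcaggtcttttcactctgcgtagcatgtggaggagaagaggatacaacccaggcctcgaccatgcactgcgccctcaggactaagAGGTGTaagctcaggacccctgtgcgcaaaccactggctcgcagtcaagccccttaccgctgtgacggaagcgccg
Searched on both strands were the T-box core AGGTGT, the longer form AGGTGTGA that contains it, the GATA factor motif AGATAA and the TATA box TATAAA. Among all 32851 RefSeq windows of this length, 11.8% hold the core, 1.12% the longer form, 9.99% the GATA motif and 12.4% the TATA box. The Tbx1 window shown holds the core on its own strand, its other window (chr16:18588900-18589149) holds none of the motifs, and the Tbx4 window holds the TATA box on the opposite strand. The Tbx18 and Tbx20 windows hold none of these letters. The Tbx4 start lies inside the annotated gene. The Tbx20 window has 68.8% G and C, against 54.0% for Tbx18 and a median of 52.4% over all windows.

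The libraries kept 11094 nuclei in SWAT, 15772 in EWAT, 16642 in MWAT, 11473 in NWAT and 11268 in HWAT, with median UMIs of a nucleus between 1189 in MWAT and 2498 in NWAT. Clustering without the T-box genes gave 42 clusters, of which 39 could be named from markers, in 16 classes with at least 50 nuclei of a library. Of the barcodes, 598 occurred in more than 1 library. The stromal (fibro-adipogenic progenitor, FAP) class formed 1 cluster in every depot. Mesothelial-like nuclei fell into different clusters by depot: 82.5% of the HWAT ones were in cluster 5, 61.9% of the MWAT ones in cluster 8, and 90.5% of the NWAT and 86.3% of the EWAT ones in cluster 10. Adipocyte-like nuclei also split by depot, and most of those of HWAT lay in a cluster led by Ucp1 and Cidea. The pericyte-like cluster also carried smooth muscle markers, with summed levels from 2881 CPM in NWAT to 17905 CPM in EWAT, beside 3022 to 4231 CPM for the pericyte markers. SWAT had no mesothelial-like class of 50 nuclei, and MWAT also held gut smooth muscle, enteric neuron and gut epithelial nuclei.

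Each member had its own classes. Tbx15 was found mostly in stromal and adipocyte-like nuclei, Tbx18 in mesothelial-, stromal and pericyte-like nuclei, and Tbx5 and Tbx20 mostly in peri-heart mesothelial-like nuclei. Tbx4 was mesothelial at a low level, Tbx2 led in pericyte-like and EWAT epithelial-like nuclei, Tbx3 in blood endothelial-like nuclei and MWAT glia-like nuclei, and Tbx1 in lymphatic endothelial-like nuclei. The depth differed between genes, with 2565 UMIs for Tbx15, 2224 for Tbx3, 992 for Tbx18, 630 for Tbx2, 335 for Tbx5, 308 for Tbx1, 75 for Tbx4 and 69 for Tbx20 over all nuclei.

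**Figure D1:**
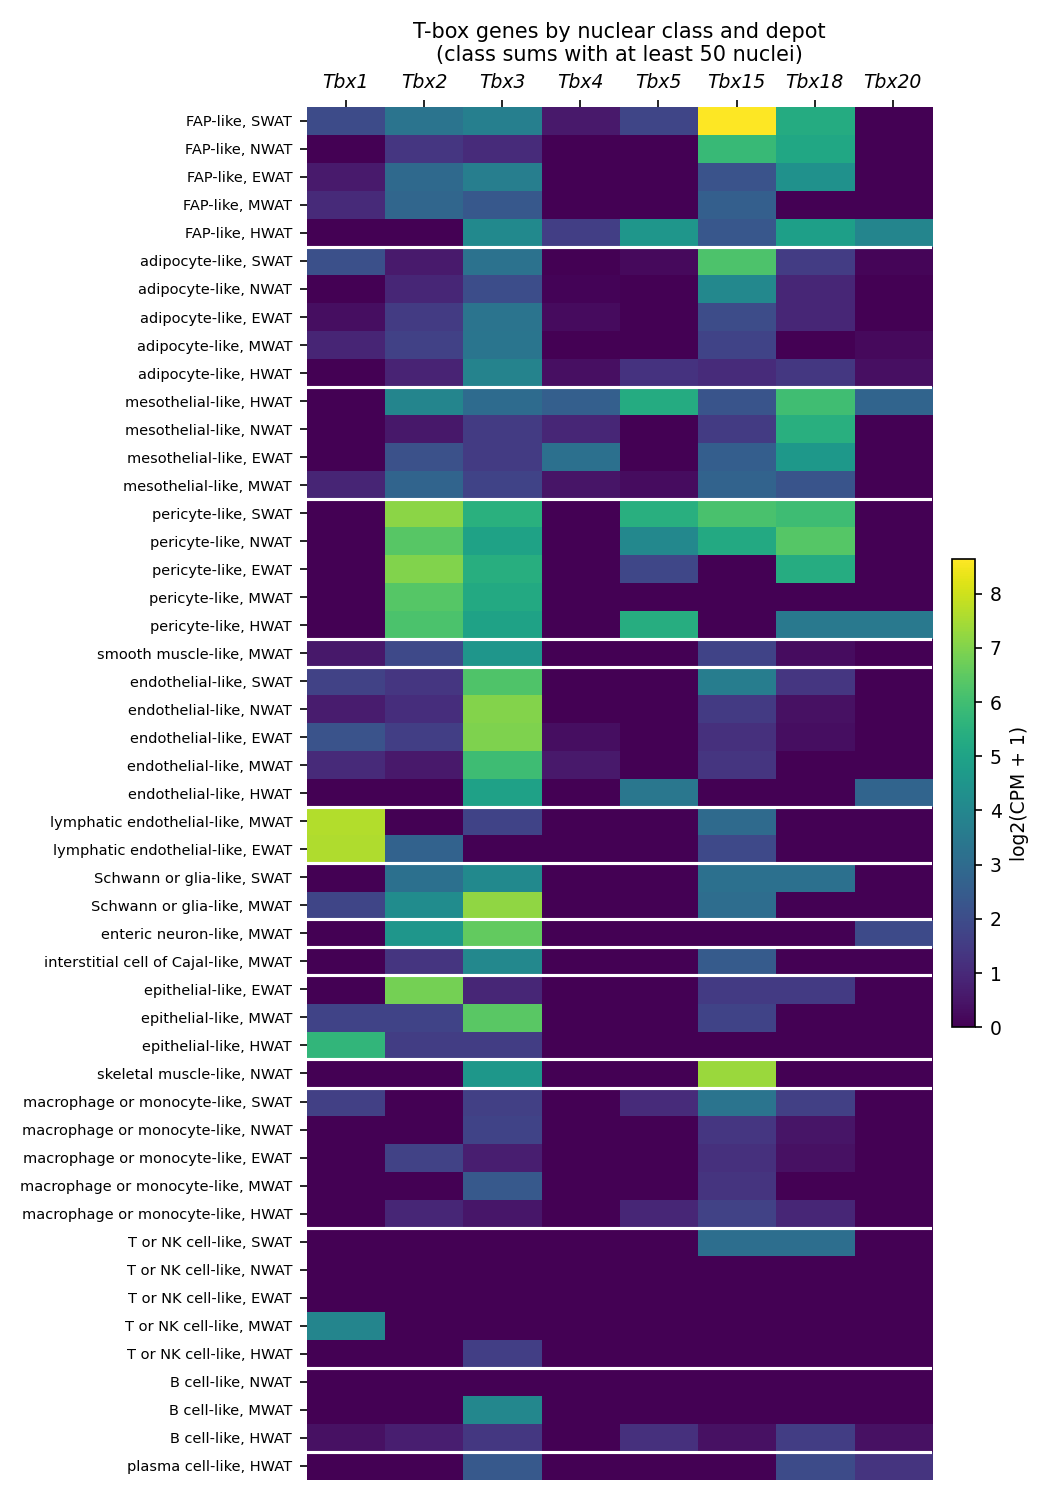
Heat map of the log2(CPM + 1) level of the 8 members (columns) in each class of each depot with at least 50 nuclei (rows, 49 in all). Brighter cells are higher: Tbx15 is bright in the SWAT stromal row (396 CPM) and the NWAT skeletal muscle row (160 CPM), Tbx3 in the endothelial rows and Tbx1 in both lymphatic rows.

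Tbx15, a patterning factor of skeleton and skin and a known gene of subcutaneous fat, had its highest level in SWAT stromal nuclei and its next depot in perirenal fat. In FAP-like nuclei it stood at 396 CPM in SWAT (369 to 425, 800 counts), 55.0 CPM in NWAT (44.9 to 66.7, 103 counts), 5.19 CPM in MWAT (5 counts), 4.05 CPM in HWAT (2 counts) and 3.67 CPM in EWAT (7 counts). The intervals of SWAT and NWAT did not touch each other, and the other 3 depots sat far below both, on counts too few to order. SWAT was 7.21-fold above NWAT (interval 5.87 to 8.94) and 108-fold above EWAT (52.1 to 269).

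Adipocyte-like nuclei gave the same order of the highest pair at lower levels: Tbx15 stood at 73.1 CPM in SWAT (957 counts), 15.4 CPM in NWAT (313 counts), 3.06 CPM in EWAT (63 counts), 2.36 CPM in MWAT (14 counts) and 1.11 CPM in HWAT (4 counts). SWAT was 4.73-fold above NWAT (4.16 to 5.39) and 23.9-fold above EWAT (18.5 to 31.3). Adipocyte-like nuclei of the depots lay in different clusters, so the ratio was also taken inside clusters. SWAT was 6.77-fold above NWAT in cluster 0 (4.34 to 11.1), 6.53-fold in cluster 1 (5.27 to 8.07), 5.01-fold in cluster 2 (3.17 to 8.39) and 3.28-fold in cluster 16 (1.03 to 16.8). Within cluster 0, SWAT was 23.4-fold above EWAT (17.6 to 31.6). The excess of SWAT was thus present in each of the 4 clusters that could be compared.

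Within a library, the stromal level of Tbx15 exceeded the adipocyte level 5.42-fold in SWAT (4.93 to 5.96) and 3.56-fold in NWAT (2.82 to 4.46). At least 1 Tbx15 UMI was seen in 43.4% of SWAT FAP-like nuclei (median 1647.5 UMIs) and 9.53% of NWAT ones (median 2165 UMIs). With every nucleus thinned to 1000 UMIs, which left out 202 SWAT and 84 NWAT nuclei, the shares were 31.7% in SWAT and 5.25% in NWAT. In SWAT macrophage-like nuclei, which should lack the gene, 1.40% had a Tbx15 UMI at a median of 1459.5 UMIs (1.03% after thinning), and their level was 9.11 CPM (17 counts). The SWAT adipocyte level was 8.02-fold above that macrophage level (4.98 to 13.8), and the NWAT adipocyte level was 9.80-fold above the NWAT macrophage level (3.79 to 36.2). The SWAT ratio was 44.6 with free RNA subtracted, and the NWAT ratio was 4.85 with no doublets removed and 5.18 after thinning.

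Other classes of SWAT and NWAT held Tbx15 at lower counts. Pericyte-like nuclei stood at 70.9 CPM in SWAT (49.9 to 97.7, 37 counts), 37.1 CPM in NWAT (21.6 to 59.4, 17 counts) and 0 in EWAT, MWAT and HWAT. SWAT was 1.91-fold above NWAT (1.05 to 3.62). The same SWAT pericyte-like nuclei carried 2459 CPM of the summed adipocyte markers, against 9352 CPM in SWAT adipocyte-like nuclei, and the same NWAT ones 3756 CPM, against 11467 CPM in NWAT adipocyte-like nuclei. The part of these markers in the pericyte values was not tested. Subtracting a free-RNA profile left 68.2 CPM in SWAT pericyte-like nuclei. SWAT endothelial-like nuclei held 11.6 CPM (36 counts), which became 31.9 CPM with no doublets removed and 0 with free RNA subtracted. The 139 skeletal muscle-like nuclei of NWAT held 160 CPM (118 to 211, 49 counts), with a UMI in 20.1% of them. With classes set for each nucleus by its own marker UMIs, that level was 46.9 CPM.

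**Figure D2:**
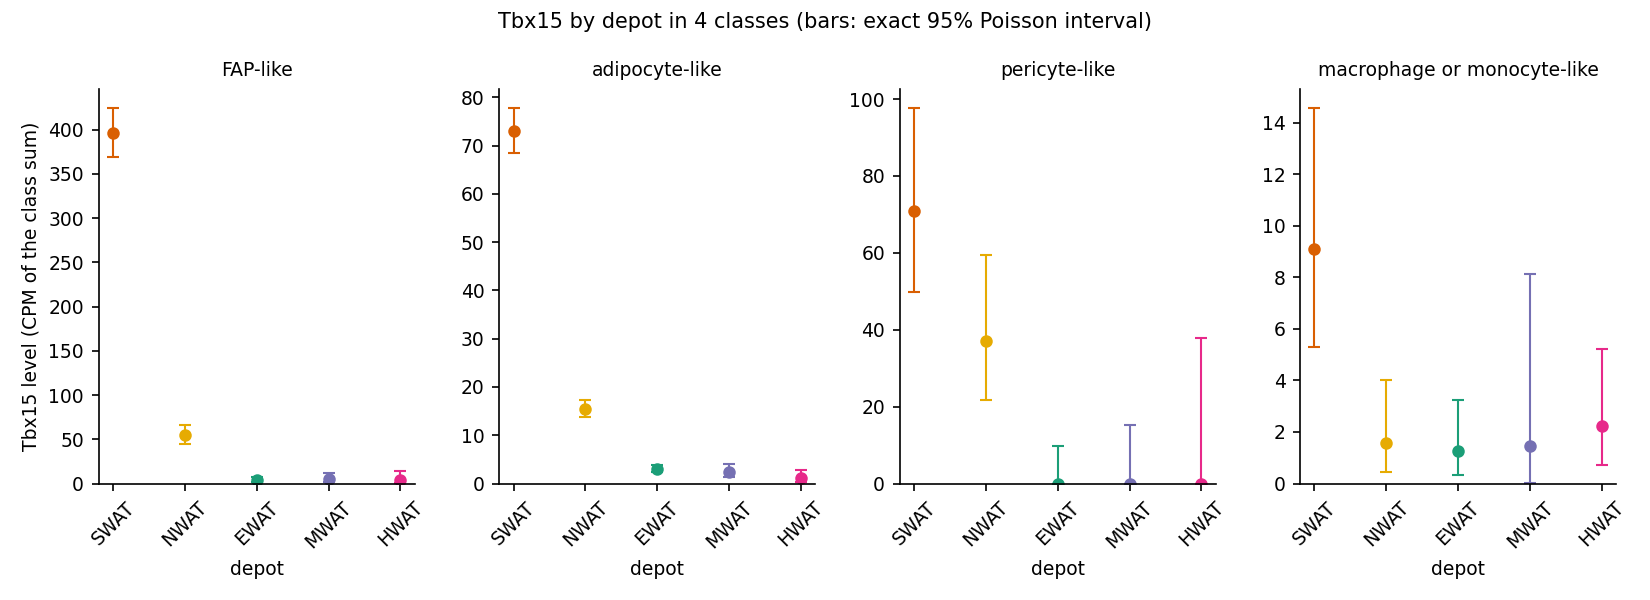
Tbx15 level in CPM (points, with exact 95% counting intervals as vertical bars) in FAP-like, adipocyte-like, pericyte-like and macrophage-like nuclei of the 5 depots. SWAT stands highest in each panel, at 396, 73.1, 70.9 and 9.11 CPM, and NWAT is next in the FAP-, adipocyte- and pericyte-like panels.

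Tbx18, which in the embryo marks the epicardium and the mesenchyme around vessels and ureter, was the member of 3 stromal and lining classes. In mesothelial-like nuclei it stood at 61.8 CPM in HWAT (56.0 to 68.0, 418 counts), 43.1 CPM in NWAT (34.8 to 52.7, 94 counts), 23.5 CPM in EWAT (18.5 to 29.4, 76 counts) and 3.77 CPM in MWAT (2.23 to 5.96, 18 counts). The 4 intervals were separate from each other, with MWAT lowest. HWAT was 2.63-fold above EWAT (2.06 to 3.41) and 16.4-fold above MWAT (10.2 to 27.9). In cluster 10, which holds most mesothelial-like nuclei of both NWAT and EWAT, NWAT was 1.82-fold above EWAT (1.32 to 2.50). Inside HWAT, cluster 5 had 72.4 CPM and cluster 22 had 16.4 CPM, a ratio of 4.41 (2.85 to 7.21).

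MWAT was also lowest for Tbx18 outside the mesothelium. In FAP-like nuclei the gene stood at 39.1 CPM in SWAT (31.0 to 48.8, 79 counts), 34.2 CPM in NWAT (64 counts), 28.4 CPM in HWAT (14 counts), 19.4 CPM in EWAT (37 counts) and 0 in MWAT, where 3 counts would be 3.11 CPM. SWAT and NWAT were not told apart at this depth (ratio 1.15, 0.813 to 1.62), SWAT was 2.02-fold above EWAT (1.35 to 3.06), and SWAT was at least 12.6-fold above MWAT. In pericyte-like nuclei Tbx18 stood at 80.7 CPM in NWAT (37 counts), 61.3 CPM in SWAT (32 counts), 39.2 CPM in EWAT (15 counts), 10.3 CPM in HWAT (1 count) and 0 in MWAT. NWAT and SWAT were not told apart (ratio 1.32, 0.798 to 2.18), and NWAT was at least 6.58-fold above MWAT. Adipocyte-like nuclei of all depots held at most 1.91 CPM. Against them, the mesothelial level was 48.5-fold higher in NWAT, 37.1-fold higher in HWAT and 25.5-fold higher in EWAT.

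Tbx5 and Tbx20, heart-field factors that act with Gata4 and Nkx2-5, came mostly from peri-heart fat, with 295 of 335 Tbx5 UMIs and 66 of 69 Tbx20 UMIs in HWAT. In mesothelial-like nuclei Tbx5 stood at 38.6 CPM in HWAT (34.1 to 43.6, 261 counts), 0.209 CPM in MWAT (1 count) and 0 in NWAT and EWAT. HWAT was at least 41.7-fold above EWAT and at least 28.1-fold above NWAT. Tbx5 differed inside HWAT as well, with 47.1 CPM in cluster 5 and 2.34 CPM in cluster 22, a ratio of 20.1 (6.81 to 98.2). A Tbx5 UMI was seen in 5.79% of HWAT mesothelial-like nuclei (median 1583 UMIs), or 3.80% after thinning, which left out 661 nuclei. HWAT macrophage-like nuclei (median 1644 UMIs) held 0.895 CPM on 2 counts.

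Tbx5 was not restricted to the mesothelium. FAP-like nuclei held 22.3 CPM in HWAT (11.1 to 39.9, 11 counts), 2.48 CPM in SWAT (5 counts) and 0 in NWAT, EWAT and MWAT, and HWAT was 9.00-fold above SWAT (2.88 to 33.0). HWAT FAP-like nuclei carried 577 CPM of the summed mesothelial markers, against 6090 CPM in HWAT mesothelial-like nuclei and 6.93 CPM in SWAT FAP-like nuclei, and the part of these markers in the Tbx5 value was not tested. Pericyte-like nuclei held 42.2 CPM in SWAT (26.4 to 63.8, 22 counts), 41.1 CPM in HWAT (4 counts), 15.3 CPM in NWAT (7 counts), 2.62 CPM in EWAT (1 count) and 0 in MWAT. The SWAT pericyte-like value rested on a library with no mesothelial-like class of 50 nuclei.

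Tbx20 was sparse. In mesothelial-like nuclei it stood at 5.91 CPM in HWAT (4.23 to 8.05, 40 counts) and had no count in NWAT, EWAT or MWAT, so that HWAT was at least 9.41-fold above MWAT, at least 6.38-fold above EWAT and at least 4.30-fold above NWAT. HWAT FAP-like nuclei held 14.2 CPM on 7 counts in 4 nuclei, which was not told apart from the HWAT mesothelial level (ratio 2.40, 0.906 to 5.41). With classes set for each nucleus by its own marker UMIs that ratio reversed to 0.587. The 32 cardiomyocyte-like nuclei of HWAT held another 7 counts and the 16 HWAT lymphatic endothelial-like nuclei 5 counts, and the summed cardiomyocyte markers stood at 215 CPM in HWAT FAP-like and 96.4 CPM in HWAT mesothelial-like nuclei. Their part in the Tbx20 values was not tested.

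Tbx4, the hindlimb and lung mesenchyme factor next to Tbx2 on the chromosome, was seen in the mesothelium of 2 depots. It stood at 8.03 CPM in EWAT (5.25 to 11.8, 26 counts), 5.18 CPM in HWAT (3.60 to 7.20, 35 counts), 0.916 CPM in NWAT (2 counts) and 0.419 CPM in MWAT (2 counts). EWAT and HWAT were not told apart (ratio 1.55, 0.897 to 2.65), and EWAT was 19.2-fold above MWAT with a wide interval (4.80 to 167). Within EWAT the mesothelial level was 41.4-fold above the adipocyte level (14.4 to 163).

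**Figure D3:**
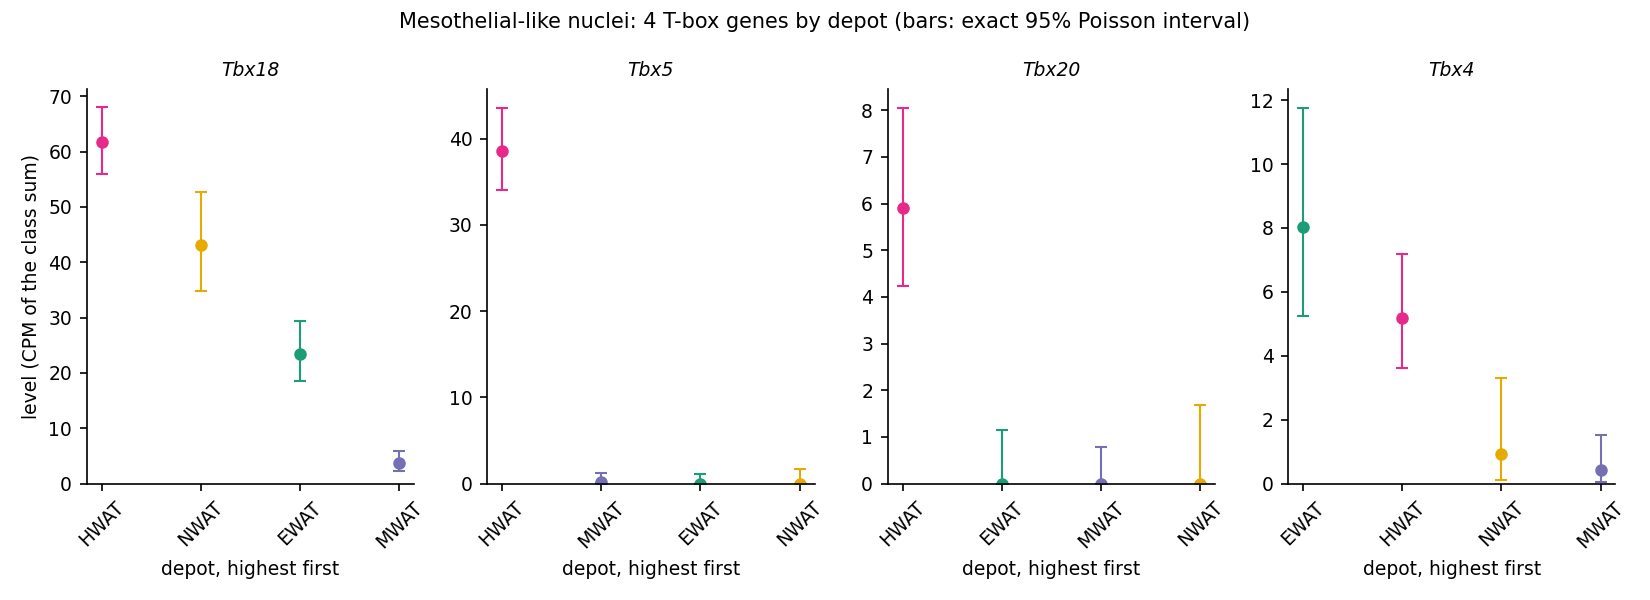
Levels in CPM (points, with exact 95% counting intervals as vertical bars) of Tbx18, Tbx5, Tbx20 and Tbx4 in mesothelial-like nuclei of the depots that hold at least 50 of them. HWAT is highest for Tbx18 (61.8), Tbx5 (38.6) and Tbx20 (5.91), EWAT for Tbx4 (8.03), and MWAT is lowest for Tbx18 (3.77) and Tbx4 (0.419).

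Tbx2, a repressor that holds back differentiation in heart and lung mesenchyme and keeps p21-type cell cycle inhibitors low, led in pericyte-like nuclei of every depot. It stood at 140 CPM in SWAT (110 to 176, 73 counts), 128 CPM in EWAT (94.8 to 169, 49 counts), 82.9 CPM in NWAT (58.7 to 114, 38 counts), 81.8 CPM in MWAT (20 counts) and 71.9 CPM in HWAT (28.9 to 148, 7 counts). SWAT and EWAT were not told apart (ratio 1.09, 0.750 to 1.60), nor were SWAT and HWAT (1.95, 0.899 to 5.01), and SWAT was 1.69-fold above NWAT (1.12 to 2.57). Pericyte over stromal levels were 51.8-fold in NWAT, 18.8-fold in EWAT, 15.7-fold in SWAT and 13.2-fold in MWAT, and HWAT FAP-like nuclei had no count. With classes set for each nucleus by its own marker UMIs they were 8.42-fold in EWAT, 7.41-fold in SWAT and 2.496-fold in MWAT, and after thinning 25.6-fold in NWAT. A pericyte level 2-fold or more above the stromal level in all 5 libraries was found for 4.11% of genes tested.

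A Tbx2 UMI was seen in 23.0% of SWAT pericyte-like nuclei (median 1698 UMIs), or 14.6% after thinning, which left out 33 nuclei. It was seen in 0 of 1140 SWAT macrophage-like nuclei (median 1459.5 UMIs), which allows a share of up to 0.263%. In MWAT, whose library also has 3348 gut smooth muscle-like nuclei, the pericyte level was 29.6-fold above the smooth muscle level (13.8 to 66.5). With classes set for each nucleus, the pericyte level was 59.6 CPM in SWAT and 18.8 CPM in MWAT, and the MWAT pericyte over smooth muscle ratio was 4.58.

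Tbx2 had further sites. EWAT epithelial-like nuclei held 130 CPM in cluster 29, led by Adcy8 and Pkhd1 (107 to 156, 114 counts), and 45.9 CPM in the multiciliated cluster 39 (22.9 to 82.1, 11 counts). Mesothelial-like nuclei held 14.3 CPM in HWAT (97 counts), 5.87 CPM in MWAT (28 counts), 3.40 CPM in EWAT (11 counts) and 0.458 CPM in NWAT (1 count), and HWAT was 2.45-fold above MWAT (1.59 to 3.87). Adipocyte-like nuclei of the 5 depots held 0.534 to 2.19 CPM.

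Tbx3, the repressor closest to Tbx2 and known for limb, mammary and conduction system development, led in blood endothelial-like nuclei within NWAT, EWAT and SWAT. It stood at 129 CPM in NWAT (117 to 141, 436 counts), 123 CPM in EWAT (112 to 134, 478 counts), 75.2 CPM in SWAT (65.8 to 85.4, 234 counts), 60.5 CPM in MWAT (118 counts) and 29.5 CPM in HWAT (16.5 to 48.7, 15 counts). NWAT and EWAT were not told apart (ratio 1.05, 0.918 to 1.20), whereas NWAT was 1.71-fold above SWAT (1.46 to 2.02), 2.13-fold above MWAT (1.73 to 2.63) and 4.36-fold above HWAT (2.62 to 7.86). A Tbx3 UMI was seen in 17.5% of NWAT endothelial-like nuclei (median 1594 UMIs) and 14.8% of EWAT ones (median 1501 UMIs), or 11.5% in NWAT and 10.9% in EWAT after thinning, which left out 307 NWAT and 394 EWAT nuclei. NWAT macrophage-like nuclei (median 2005 UMIs) had one in 0.512%.

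Most of the endothelial Tbx3 sat in cluster 3, led by the capillary genes Gpihbp1 and Car4. There it stood at 233 CPM in EWAT (400 counts), 187 CPM in MWAT (97 counts), 184 CPM in NWAT (378 counts), 114 CPM in SWAT (182 counts) and 45.8 CPM in HWAT (7 counts). Within this cluster the order of depots changed: EWAT was 1.26-fold above NWAT (1.09 to 1.46), was not told apart from MWAT (1.24, 0.993 to 1.57), and was 2.03-fold above SWAT (1.70 to 2.44) and 5.08-fold above HWAT (2.44 to 12.7). Cluster 15, led by the arterial genes Bmx and Sox17, held 33.2 to 67.6 CPM, cluster 11, led by Kirrel3 and Mecom, 17.8 to 33.0 CPM, and the venous-type cluster 19, led by Vwf and Cytl1, 0 to 9.93 CPM on at most 1 count in each of 4 depots. Cluster 3 exceeded cluster 11 by 10.5-fold in MWAT (4.37 to 33.2), 7.30-fold in EWAT (5.06 to 10.9), 5.58-fold in NWAT and 4.004-fold in SWAT. In HWAT they were not told apart (1.77, 0.449 to 8.23).

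**Figure D4:**
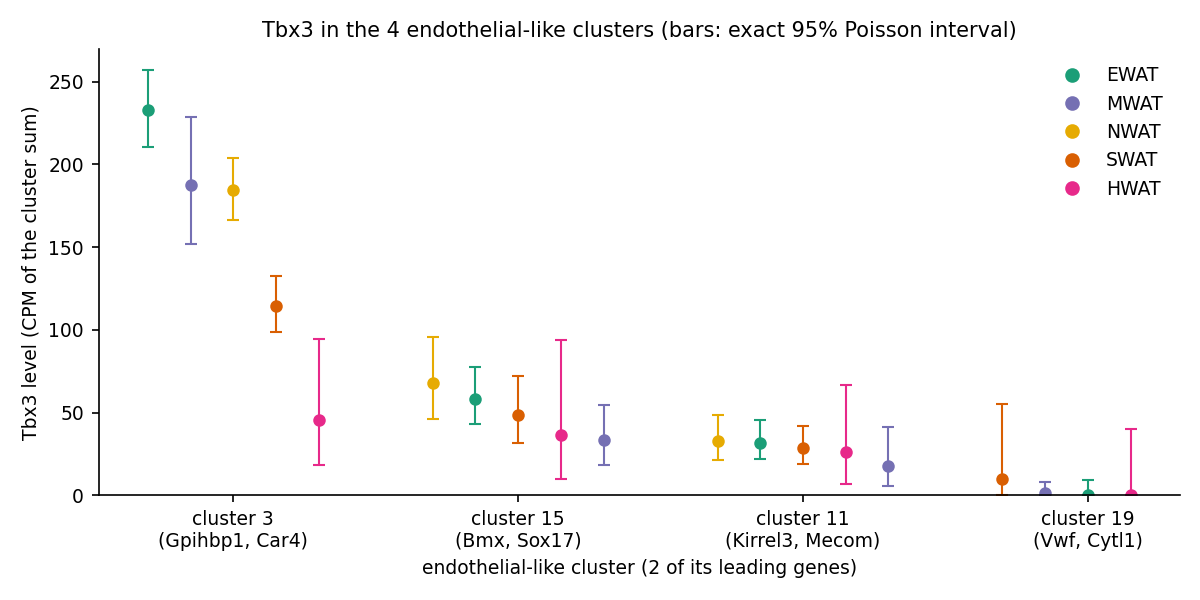
Tbx3 level in CPM (points, with exact 95% counting intervals as vertical bars) in the 4 blood endothelial-like clusters, with depots (colours) in order of level and shown where they hold at least 50 nuclei. Cluster 3 is highest in EWAT, MWAT, NWAT and SWAT (114 to 233 CPM), and cluster 19 holds at most 1 count in any depot.

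Outside the endothelium, Tbx3 was highest in nerve and gut types of MWAT. MWAT Schwann- or glia-like nuclei held 147 CPM (112 to 189, 59 counts), MWAT enteric neuron-like nuclei 92.4 CPM (33 counts) and MWAT gut epithelial-like nuclei 84.8 CPM (36 counts), beside 60.5 CPM in MWAT endothelial-like nuclei. The epithelial level moved between 52.4 CPM as a mean of nuclei and 195 CPM with at most 2% mitochondrial UMIs, and the enteric neuron level was 52.1 CPM after thinning. The MWAT epithelial-like nuclei carried 2787 CPM of the summed epithelial markers. They also carried 2471 CPM of FAP, 2292 CPM of adipocyte and 2280 CPM of smooth muscle markers, with an estimated free-RNA share of 0.252. The part of these in the Tbx3 value was not tested. Pericyte-like nuclei held 30.6 to 44.1 CPM in the 5 depots. Adipocyte-like nuclei held 13.6 CPM in HWAT (49 counts), 9.29 CPM in MWAT (55 counts), 9.03 CPM in EWAT (186 counts), 8.55 CPM in SWAT (112 counts) and 3.11 CPM in NWAT (63 counts). NWAT, which shared the top endothelial level with EWAT without being told apart from it, was thus lowest in adipocyte-like nuclei. HWAT was 4.38-fold above NWAT in these nuclei (2.95 to 6.46). The antisense gene Tbx3os1 overlaps Tbx3 by 697 bases, and the files do not state how strand was used in counting. Tbx3os1 itself was highest in other classes, at 261 CPM in MWAT glia-like nuclei and 56.7 to 131 CPM in pericyte-like nuclei, against 5.90 to 20.7 CPM in endothelial-like nuclei.

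Tbx1, a pharyngeal and heart outflow factor that is also needed for lymphatic vessel growth in mice, led in lymphatic endothelial-like nuclei. It stood at 200 CPM in MWAT (161 to 247, 87 counts) and 195 CPM in EWAT (153 to 246, 71 counts), the 2 depots with at least 50 such nuclei, and these were not told apart (ratio 1.03, 0.741 to 1.42). In EWAT the lymphatic level was 54.3-fold above the blood endothelial level (30.4 to 104). A Tbx1 UMI was seen in 17.9% of MWAT lymphatic-like nuclei (median 948 UMIs) and 28.6% of EWAT ones (median 1500 UMIs), but in 17.6% of MWAT and 18.1% of EWAT ones after thinning, which left out 237 MWAT and 40 EWAT nuclei. Of 1629 EWAT macrophage-like nuclei (median 1712 UMIs), 0 had one, where 3 nuclei would be 0.184%. Among the smaller lymphatic groups, the 39 SWAT nuclei held 22 counts, the 18 NWAT nuclei 3 counts and the 16 HWAT nuclei 0.

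Tbx1 is known as a gene of beige fat cells, and its adipocyte level was low. SWAT adipocyte-like nuclei held 3.28 CPM (43 counts, a UMI in 0.680% of nuclei), beside 2.97 CPM in SWAT FAP-like and 2.14 CPM in SWAT macrophage-like nuclei. MWAT adipocyte-like nuclei held 0.844 CPM, EWAT ones 0.243 CPM, and NWAT and HWAT ones 0. The SWAT level in adipocytes was thus of the size seen in classes around them, though those rest on 6 FAP-like and 4 macrophage-like counts. HWAT epithelial-like nuclei, most of them in a cluster led by the airway gene Scgb1a1, held 49.9 CPM (25 counts), or 20.2 CPM with classes set for each nucleus.

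**Figure D5:**
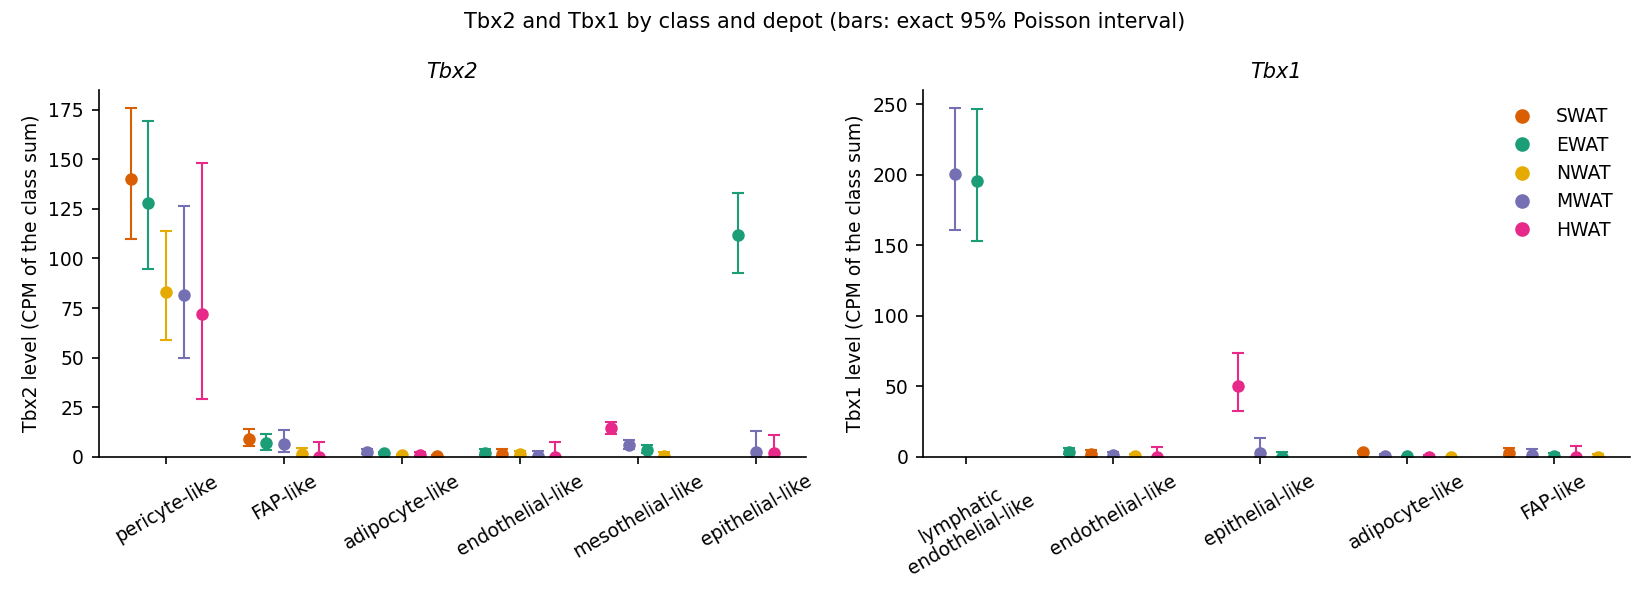
Levels in CPM (points, with exact 95% counting intervals as vertical bars) of Tbx2 and Tbx1 by class, with depots (colours) in order of level. Tbx2 is highest in pericyte-like nuclei (71.9 to 140 CPM) and EWAT epithelial-like nuclei, and Tbx1 in lymphatic endothelial-like nuclei of MWAT (200 CPM) and EWAT (195 CPM).

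As a list, the members were described by how many lay 2-fold or more from the mean of the other depots, among those with at least 20 counts in the class. In HWAT mesothelial-like nuclei 6 of the 7 that passed this minimum were higher (Tbx2, Tbx3, Tbx4, Tbx5, Tbx18 and Tbx20) and 0 lower, where 6.61% of all genes tested were higher and 13% lower. Their median log2 difference was 1.97, against -0.17 for all genes. In EWAT 1 of the 7 was higher (Tbx4, beside 6.04% of all genes) and 2 were lower (Tbx5 and Tbx20, beside 5.61%). In NWAT 1 was higher (Tbx18, beside 4.66%) and 5 were lower (Tbx2, Tbx4, Tbx5, Tbx15 and Tbx20, beside 7.23%). In MWAT 0 were higher, beside 7.98%, and 4 were lower (Tbx4, Tbx5, Tbx18 and Tbx20, beside 4.23%). HWAT thus had most of the measured members on its high side, and EWAT, NWAT and MWAT each had more members lower than higher. Tbx5 and Tbx20 had at most 1 count in each of EWAT, NWAT and MWAT. Their lower calls there follow from the HWAT level in the mean and do not set these depots apart from each other. In MWAT, Tbx2 and Tbx15 lay above the mean of the other depots by 0.87 and 0.76 on the log2 scale, short of 2-fold.

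In SWAT FAP-like nuclei all 4 that passed were higher (Tbx2, Tbx3, Tbx15 and Tbx18), beside 5.47% of all genes, and 0 were lower, beside 6.84%. The higher count was 2 with nuclei thinned to 1000 UMIs. EWAT had 2 of the 4 higher (Tbx2 and Tbx3, beside 4.96%) and 1 lower (Tbx15, beside 4.2%). MWAT had 1 higher (Tbx2, beside 6.56%) and 2 lower (Tbx15 and Tbx18, beside 5.3%). NWAT had 2 higher (Tbx15 and Tbx18, beside 3.84%) and 2 lower (Tbx2 and Tbx3, beside 7.07%), and HWAT had 2 higher (Tbx3 and Tbx18, beside 10.4%) and 2 lower (Tbx2 and Tbx15, beside 11.9%). Outside SWAT, each depot thus had stromal members on both sides, but the Tbx2 and Tbx3 calls rest on few counts. Tbx2 had 18 counts in SWAT, 13 in EWAT, 6 in MWAT, 3 in NWAT and 0 in HWAT. SWAT and EWAT were not told apart for Tbx2 (ratio 1.31, 0.605 to 2.90). Tbx3 stood at 16.2 CPM in HWAT (8 counts), 12.4 CPM in SWAT (25 counts) and 12.1 CPM in EWAT (23 counts). It had 4 counts in MWAT and 2 in NWAT.

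SWAT adipocyte-like nuclei had 3 of 5 higher (Tbx1, Tbx15 and Tbx18, beside 5.11%) and 1 lower (Tbx2, beside 6.45%). EWAT had 0 higher, beside 7.79%, and 1 lower (Tbx15, beside 5.13%). MWAT had 2 higher (Tbx1 and Tbx2, beside 10.9%) and 2 lower (Tbx15 and Tbx18, beside 4.19%). NWAT had 1 higher (Tbx15, beside 4.31%) and 2 lower (Tbx1 and Tbx3, beside 12.0%), and HWAT had 1 higher (Tbx18, beside 11.8%) and 2 lower (Tbx1 and Tbx15, beside 19.2%). Several of these calls rest on few counts. Tbx1 in MWAT stood at 0.844 CPM on 5 counts, below the 3.28 CPM of SWAT, with 0 counts in NWAT and HWAT. Tbx18 stood at 1.91 CPM in SWAT (25 counts) and 1.67 CPM in HWAT (6 counts), with 0 counts in MWAT.

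Pericyte-like nuclei had 3 of 5 higher in SWAT (Tbx5, Tbx15 and Tbx18, beside 4.39%) and 0 lower, beside 5.69%. MWAT had the same 3 lower, beside 7.11%, and 0 higher, beside 8.88%. NWAT had 2 higher (Tbx15 and Tbx18, beside 8.72%) and 0 lower, beside 6.95%. EWAT had 1 higher (Tbx18, beside 8.57%) and 2 lower (Tbx5 and Tbx15, beside 6.53%), and HWAT had 1 higher (Tbx5, beside 10.2%) and 0 lower, beside 19.5%. In endothelial-like nuclei, 1 of 3 was higher in SWAT (Tbx15, beside 5.22%), EWAT (Tbx1, beside 4.2%) and NWAT (Tbx3, beside 4.3%), and 0 in MWAT, beside 7.67%, and HWAT, beside 9.28%. Lower were 1 in NWAT (Tbx1, beside 7.89%), 2 in HWAT (Tbx3 and Tbx15, beside 13.5%) and 0 in SWAT (beside 4.61%), EWAT (beside 4.28%) and MWAT (beside 4.86%). The NWAT call of Tbx3 lay at the limit, at 1.002 on the log2 scale, beside 0.917 in EWAT, from which NWAT was not told apart. The lower call of Tbx15 in HWAT rests on 0 counts, with an interval up to 7.25 CPM. The SWAT endothelial count was 0 with free RNA subtracted and 2 with no doublets removed. A member passed the minimum through the depot where it was high, so these counts describe the pattern and do not measure it against chance.

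Of the other T-box genes, Tbx21, the T helper and NK cell factor, stood in T or NK cell-like nuclei at 138 CPM in EWAT (11 counts), 125 CPM in NWAT (13 counts), 125 CPM in SWAT (16 counts), 28.8 CPM in HWAT (14 counts) and 14.1 CPM in MWAT. By count, 38 of its 59 SWAT UMIs were in the far more numerous adipocyte-like nuclei, at 2.90 CPM in SWAT, 1.11 CPM in HWAT, 0.691 CPM in NWAT, 0.675 CPM in MWAT and 0.146 CPM in EWAT. Mga, a T-box and MAX-binding repressor of wide expression, was found in every class at 38.3 to 223 CPM. Tbx6 had 380 UMIs, 55 of its 82 SWAT UMIs being in adipocyte-like nuclei (4.20 CPM), while Tbx10, Tbx19, Tbx22, Tbr1 and T had 0 to 4 UMIs each in all nuclei.

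Of the 12 genes listed as known T-box targets, 7 passed 20 counts in mesothelial-like nuclei, and HWAT had 5 of them higher and 1 lower, beside 6.61% of all genes higher and 13% lower, with a median log2 difference of 1.13 against -0.17 for all genes. Higher were the atrial peptide gene Nppa (14.2 CPM in HWAT and 0 in the other 3 depots), the gap junction gene Gja1 (110 CPM in HWAT), Wnt2 (19.7 CPM in HWAT) and the cell cycle inhibitors Cdkn1a (47.9 CPM) and Cdkn2a (10.4 CPM). Lower was Bmp4 (89.0 CPM in HWAT). Nppa is also among the cardiomyocyte markers given above. The list does not separate targets that a member activates from those it represses, so higher does not mean the same for each. Tbx2 (14.3 CPM) and Tbx3 (7.10 CPM), which mainly repress, were themselves higher in HWAT, as were the listed cell cycle inhibitors. A link between them was not tested. Of 12 partner factors that passed in these nuclei, 1 was higher in HWAT and 3 were lower (Hand1, Isl1 and Tle1), beside the same 6.61% and 13%, and their median log2 difference was -0.23 against -0.17 for all genes. The higher was Gata4, at 43.6 CPM in HWAT, 44.9 CPM in NWAT, 9.57 CPM in EWAT and 0.628 CPM in MWAT, so that NWAT, without a Tbx5 count, held it at a like level. HWAT adipocyte-like nuclei, with Tbx5 at 1.39 CPM, also had 4 of 7 targets higher (Nppa, Gja1, Cdkn1a and Cdkn2a) and 1 lower (Fgf10). In that class 11.8% of all genes were higher and 19.2% lower. The median log2 difference was 1.46 for the targets and -0.22 for all genes. HWAT FAP-like nuclei had 0 of 5 targets higher and 0 lower, beside 10.4% and 11.9% of all genes. Targets, like the members, could pass the minimum through the depot where they were high. In mesothelial-like nuclei Nppa had 96 counts in HWAT and 0 elsewhere, and Cdkn2a had 70 in HWAT and at most 3 elsewhere. These counts and medians thus do not measure the targets against chance.

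Regional regulators were set beside Tbx15. In FAP-like nuclei of SWAT, 2 of the 9 that passed were higher, Shox2 (34.7 CPM) and En1 (25.8 CPM), and 3 were lower, Tcf21 (0.495 CPM), Wt1 (0) and Meis1, beside 5.47% of all genes higher and 6.84% lower. En1 stood at 17.1 CPM in NWAT FAP-like nuclei, the depot next to SWAT for Tbx15 as well. Shox2 did not share that order, with 0 counts in NWAT FAP-like nuclei. In adipocyte-like nuclei Shox2 stood at 8.24 CPM in SWAT and 0.148 CPM in NWAT. Wt1, the visceral mesothelial and stromal regulator, stood at 180 CPM in HWAT, 126 CPM in EWAT, 105 CPM in MWAT and 58.7 CPM in NWAT FAP-like nuclei. In SWAT adipocyte-like nuclei 3 of 11 were higher (Shox2, Prrx1 and En1) and 5 lower (Tcf21, Wt1, Meis1, Osr1 and Foxf1), beside 5.11% and 6.45% of all genes. These regulators too could pass the minimum through the depot where they were high. Shox2 did so in FAP-like nuclei, with 70 counts in SWAT and 0 elsewhere.

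The genes outside the family whose log2(CPM + 1) was most like each member over the 49 class-by-depot sums are given as a description, since sums of 1 library share its depth and its free RNA. For Tbx15 they were Hoxc10 (Pearson r 0.78), En1 (0.76) and Hoxc9 (0.71). For Tbx18 they were Col1a2 (0.75), Pcolce (0.72) and Adamts15 (0.72), for Tbx5 Gm43050 (0.75), Ankrd1 (0.70) and Foxs1 (0.68), and for Tbx1 Prox1 (0.73), Dnah10 (0.68) and 1600002D24Rik (0.68). For Tbx2 they were Lin7a (0.86), Id4 (0.82) and Heyl (0.80), and for Tbx3 Tmem47 (0.75), Mmp15 (0.74) and Pcdh1 (0.72). Tbx4 and Tbx20 had fewer than 200 UMIs and were not compared with genes outside the family. Within the family, the highest r were 0.69 between Tbx5 and Tbx20 and 0.61 between Tbx5 and Tbx18. The first rests on the 69 UMIs of Tbx20, 66 of them in HWAT.

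Detection in the same nucleus was counted after thinning. Of 3396 HWAT mesothelial-like nuclei, 129 had a Tbx5 UMI, 202 a Tbx18 UMI and 6 both, so that Tbx18 was seen in 4.65% of nuclei with Tbx5 and 6.00% of those without. Of 934 SWAT FAP-like nuclei, 296 had a Tbx15 UMI, 31 a Tbx18 UMI and 9 both, which is 3.04% of nuclei with Tbx15 and 3.45% of those without. At 1000 UMIs a nucleus, the share with Tbx18 was thus no higher in nuclei with Tbx5 or Tbx15 than in those without. With 6 and 9 nuclei holding both, a moderate difference either way could not be seen. Of 38 NWAT FAP-like nuclei with Tbx15, 0 had Tbx18, against 3.79% of those without. Of the 129 HWAT mesothelial-like nuclei with Tbx5, 0 had Tbx20, against 0.673% of those without, and 22 nuclei in all had Tbx20. In SWAT pericyte-like nuclei Tbx18 was seen in 6.25% of the 32 nuclei with Tbx2 and 4.81% of those without.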

How the data were processed

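Single-nucleus RNA was sequenced from 5 depots with the 10x Genomics 3′ V3 kit, 1 pooled library each. The authors deposited gene-by-barcode matrices of UMI counts, not normalized, written by Cell Ranger 6.0.1 per the file headers. The genome mm10 and Seurat are named in the submitters' processing notes, and the annotation release is not given in the sources used here. The members and all lists were chosen with earlier results of these data known.

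From the 76040 barcodes, those with fewer than 200 genes or over 10% mitochondrial UMIs (149) and likely doublets at 0.8% per 1000 nuclei (9642) were removed. Clusters came from 2000 variable genes without the T-box genes, 40 components, 20 neighbours and Leiden resolution 1, with no integration, in leidenalg 0.10.2 and igraph 0.11.9 under Python 3.11.15. Tables used pandas 2.3.3 with scipy 1.17.1 and numpy 2.4.6, and figures matplotlib 3.10.9. Clusters were named "-like" from marker lists. The naming thresholds were adjusted after the clusters were seen: a mean log2 rise of 1.5 with 10 CPM added, a lead of 0.5 over the next list, and at least 3 markers raised 2-fold. The 3 unnamed clusters (398 nuclei) were left out.

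Counts were summed by library and class with at least 50 nuclei. CPM have exact Poisson intervals, shares exact Clopper-Pearson intervals and ratios exact conditional binomial intervals, all 95% and for counting error only. Ratios against 0 counts use a floor of 3 counts for the class sum, and ratios against 1 or 2 counts are given as counted. A gene was called 2-fold with 0.5 counts added, among genes with at least 20 counts. Shares were also taken with nuclei thinned to 1000 UMIs, which left out 13287 nuclei. Genes named were the members, the listed genes and the 3 most like genes of each member with at least 200 UMIs. Values were recomputed under 10 alternatives. The calling of fold and interval was checked on simulated counts. Promoter windows came from RefSeq.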

Additional observations from a re-analysis of the deposited data

How the results depend on the processing

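Under 10 alternatives to the filters, doublet removal, clustering, class calls, depth and free RNA, 174 results gave 1588 values. Of these, 1503 were labelled the same, 83 moved and 2 reversed. A level or ratio was labelled the same if it moved by less than its counting interval. Some counts of members labelled the same did change. After thinning, the count higher in SWAT was 2 in adipocyte-like (3) and pericyte-like nuclei (3). In SWAT FAP-like nuclei it was 3 with at most 2% mitochondrial UMIs (4). With classes set for each nucleus by its own marker UMIs, the SWAT over NWAT ratio of Tbx15 in FAP-like nuclei was 9.07 (7.21 with clusters), the SWAT pericyte over FAP ratio of Tbx2 was 7.41 (15.7), and the HWAT FAP over mesothelial ratio of Tbx20 was 0.587 (2.40). With nuclei thinned to 1000 UMIs, the HWAT endothelial over adipocyte ratio of Tbx3 was 0.987 (2.17), and the count of members higher in SWAT FAP-like nuclei was 2 (4). The count of members higher in SWAT endothelial-like nuclei was 1. It was 2 with no doublets removed, with doublets removed at double the rate, with Leiden resolution 0.5 and with classes set for each nucleus, and 0 with free RNA subtracted. The cause was not tested. By construction, thinning lowers bounds set by a floor of 3 counts: Tbx5 was then at least 18.2-fold higher in HWAT than in EWAT mesothelial-like nuclei and Tbx18 at least 6.31-fold higher in SWAT than in MWAT FAP-like nuclei. Under Leiden resolution 2, a 2% mitochondrial limit and the doubled doublet rate no pericyte-like class was named, so those values could not be recomputed. No paired analysis was possible because each depot has 1 library. Depth limits Tbx4 (75 UMIs) and Tbx20 (69 UMIs) most.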
